A study of Mus musculus with 14 samples.

Results

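The miR-23, miR-27 and miR-24 microRNAs were measured in mouse heart transplants with 5 real-time PCR assays, mmu-miR-23a, mmu-miR-23b, mmu-miR-27a, mmu-miR-27b and mmu-miR-24. The prefix for mouse is mostly left out below. The 5 were taken by name from the 375 microRNA assays of a TaqMan rodent microRNA card, with earlier results of these data known. These microRNAs are made from a pair of paralogous clusters, each a single stretch of DNA transcribed as one precursor that is cut into a miR-23, a miR-27 and a miR-24. Both clusters are known to be active in blood vessel endothelium, and both act in T cells, where members restrain activation and effector functions. miR-27 and miR-24 have also been studied in heart muscle, where miR-24 is linked to cell survival and calcium release.

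The series compared syngeneic with allogeneic heterotopic heart grafts, both as whole hearts and as the lymphocytes isolated from grafts, called graft-infiltrating lymphocytes (GIL). Mice were 8 to 10 weeks old. Syngeneic grafts were C57BL/6 hearts placed in C57BL/6 recipients and were not rejected, per the labels. Allogeneic grafts were BALB/c hearts placed in C57BL/6 recipients and were rejected, so heart strain and rejection cannot be told apart between these groups. Whole hearts were taken on day 7 and GIL on day 5, with 3 arrays for each of the 4 transplant groups. Normal hearts (BALB/c) and peripheral blood mononuclear cells, or PBMC (C57BL/6), had 1 array each, as controls without a transplant. Each array held RNA pooled from 3 animals, so n counts pools and the spread is between pools, not between single animals. In bulk RNA of this kind, fewer cells of a type and less RNA per cell cannot be told apart.

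The mature sequences are shown because the shared seeds group the members and because a single base separates the assay targets of miR-27a and miR-27b. RefSeq (GRCm38.p6) gave 4 of the 5 sequences, printed 5′ to 3′ with the seed, bases 2 to 8, in capitals. miR-23b-3p is named only.
miR-23a-3p: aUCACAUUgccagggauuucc
miR-27a-3p: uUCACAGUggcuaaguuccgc
miR-27b-3p: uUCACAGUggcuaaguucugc
miR-24-3p: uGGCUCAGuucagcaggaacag

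miR-27a-3p and miR-27b-3p have the same seed and are identical at 20 of 21 bases. The difference is C19U, counted from the 5′ end with the base of miR-27a first, so it lies in the 3′ part that the seed does not include. Cross-detection between these 2 assays was not tested. The seed of miR-23a-3p starts with the same 5 bases (UCACA) as the miR-27 seed and differs from it by U7G, with the base of miR-23a first. Among the 1679 mature mouse sequences of the table, the seed UCACAGU was found in miR-27a-3p and miR-27b-3p alone, and no other sequence had the seed of miR-23a-3p. The sequence of miR-23b-3p was absent from that set, so whether miR-23b-3p has the seed of miR-23a-3p was not checked here. The miR-24 seed shares none of its positions with the other seeds shown. It was also found in 4 other mature sequences, miR-5124b, miR-6369, miR-6410 and miR-6413.

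In GRCm38.p6, Mir23a (84208518 to 84208592), Mir27a (84208672 to 84208758) and Mir24-2 (84208815 to 84208921) lie within 404 bases of the plus strand of chromosome 8. Mir23b (63300484 to 63300557), Mir27b (63300712 to 63300784) and Mir24-1 (63301208 to 63301275) lie within 792 bases of the plus strand of chromosome 13, inside the protein-coding gene Aopep. The Mir24-2 and Mir24-1 hairpins, of 107 and 68 bases, hold the same mature sequence, here in capitals.
Mir24-2: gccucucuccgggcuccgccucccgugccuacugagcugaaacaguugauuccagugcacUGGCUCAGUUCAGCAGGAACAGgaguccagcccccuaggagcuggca
Mir24-1: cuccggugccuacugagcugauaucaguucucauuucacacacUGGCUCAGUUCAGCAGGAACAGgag

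The miR-24 assay therefore reads the output of both clusters together. The miR-23b and miR-27b assays are named for members of the chromosome 13 cluster, and the miR-23a and miR-27a assays for members of the chromosome 8 cluster.

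The threshold cycle (Ct) is the PCR cycle at which a signal appears, so that a lower Ct is a higher level. A well was taken as detected below Ct 35. A level is the mean Ct of reference microRNAs on an array minus the Ct of the assay, in log2 units. The reference was the set of microRNA assays detected on all 7 arrays of a table, 210 for hearts and 137 for lymphocytes. Levels of different assays are not set against each other, since assays can differ in efficiency. Reference Ct ran from 22.4 to 23.9 in hearts and from 23.2 to 27.95 in lymphocytes. Allogeneic GIL pool 3 stood apart, with the highest reference Ct and 161 assays detected, against 197 to 221 on the other 6 lymphocyte arrays. All 7 cardiac muscle markers were detected on the normal and the 3 syngeneic heart arrays, and 6 to 7 on the allogeneic ones. The 4 leukocyte markers were detected on all 7 lymphocyte arrays, but 3 to 5 cardiac, both endothelial, both smooth muscle and all 3 fibroblast markers were also detected on every GIL array.

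mmu-miR-23a gave no usable series of values. Its well was undetermined on 13 of 14 arrays, in hearts and GIL alike, and its one Ct was 23.9, in PBMC. The instrument software marked all 14 miR-23a wells as not amplified, the PBMC well included. Among 2213 microRNA wells with that mark, 117 (5.29%) had a Ct below 35, so a marked well with an early Ct was uncommon on these cards. In the comparisons with PBMC the assay passed the filter on low values through that 1 marked well alone, with every GIL value at the detection limit. No fold or test of miR-23a is therefore given, and it is left out of the counts of members below. Of the chromosome 8 cluster, miR-27a is the member with values that is not also made by the other cluster, and it was detected on 14 of 14 arrays. miR-23b, miR-27a, miR-27b and miR-24 were detected on all 14 arrays, and none of their wells was marked.

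In whole hearts, mmu-miR-23b was highest in the normal heart, lower in syngeneic grafts and lowest in allogeneic grafts. Its level was 0.92 in the normal heart. It was 0.11, 0.25 and 0.40 in syngeneic pools 1 to 3, and -0.29, -0.49 and -0.38 in allogeneic pools 1 to 3. No allogeneic value reached the lowest syngeneic value, and no syngeneic value reached the normal one.

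The allogeneic hearts were 1.56-fold below the syngeneic hearts (log2 fold change -0.64 ± 0.20 SE, n = 3 pools per group, 95% interval -1.13 to -0.15), which missed the threshold (limma adjusted p = 0.0524). An assay is called below at a limma adjusted p under 0.05. None of the 4 members tested was called in this comparison, in which 32.4% of 238 assays were called. By limma's unadjusted p, 47.5% of the assays were under 0.05, and of the members miR-23b alone was (0.0176). Values did not overlap between the groups in 54.2% of the assays and, of the members, in miR-23b. It was below syngeneic hearts under each of 6 scalings and was called under 2 of them, at -0.90 scaled to the reference median and -0.99 after quantile normalization. Arrays of both groups were run together on 2 days, and there the allogeneic pool was lower by -0.40 and -0.63.

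Against the normal heart, miR-23b fell in allogeneic hearts, by 2.47-fold (log2 fold change -1.31 ± 0.29, 95% interval -1.998 to -0.61, limma adjusted p = 0.0115, 3 pools against 1 array). It was the single member called among 4, where 51.9% of 241 assays were called, 25.7% as lower. The lone normal array was assumed to vary as the other groups do. The call was lost when levels were scaled to MammU6 (-1.08) or to snoRNA202 (-0.71). Syngeneic hearts stood at -0.66 ± 0.29 against the normal heart (limma adjusted p = 0.135), in a comparison where none of the 4 members and 19% of 242 assays were called. Both comparisons share the normal array, and allogeneic hearts have its strain while syngeneic hearts do not. The relative quantities of miR-23b in the authors' deposited table, with the normal heart at 1, were 0.845, 0.80 and 0.927 in syngeneic and 0.521, 0.567 and 0.769 in allogeneic pools.

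mmu-miR-27b, the neighbour of miR-23b in the chromosome 13 cluster, gave nearly equal means in both kinds of graft. Its level was 3.09 in the normal heart, 3.01, 2.33 and 2.81 in syngeneic pools and 2.56, 3.15 and 2.44 in allogeneic pools. The pools of each group were spread widely and the groups overlapped. The difference was -0.01 ± 0.30 (95% interval -0.72 to 0.71, limma adjusted p = 0.988), an interval wide enough to hold the value of miR-23b. On the shared run days it was -0.45 and 0.10.

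mmu-miR-27a, from the chromosome 8 cluster, stood higher in allogeneic hearts on average. The normal heart was at 2.12, the syngeneic pools at 2.42, 1.75 and 1.80, and the allogeneic pools at 2.51, 3.35 and 2.30. Allogeneic pool 2 was the highest, and syngeneic pool 1 lay above allogeneic pool 3, so the groups overlapped. The difference of 0.73 ± 0.35 (95% interval -0.12 to 1.57) was not called (limma adjusted p = 0.158), and it was 0.41 without allogeneic pool 2. It was 0.08 and 0.55 on the shared run days.

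mmu-miR-24, which both clusters make, was the earliest of these assays to appear, at Ct 13.6 to 15.2 on the heart arrays. Its level was 9.09 in the normal heart, 8.77, 8.66 and 8.79 in syngeneic pools and 8.53, 8.67 and 8.27 in allogeneic pools. The syngeneic pools lay close together and allogeneic pool 2 reached into their range. The difference of -0.25 ± 0.21 was not called (95% interval -0.76 to 0.26, limma adjusted p = 0.387). Against the normal heart miR-24 stood at -0.60 ± 0.30 in allogeneic hearts (limma adjusted p = 0.129), and its sign turned after quantile normalization (0.37).

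**Figure D1:**
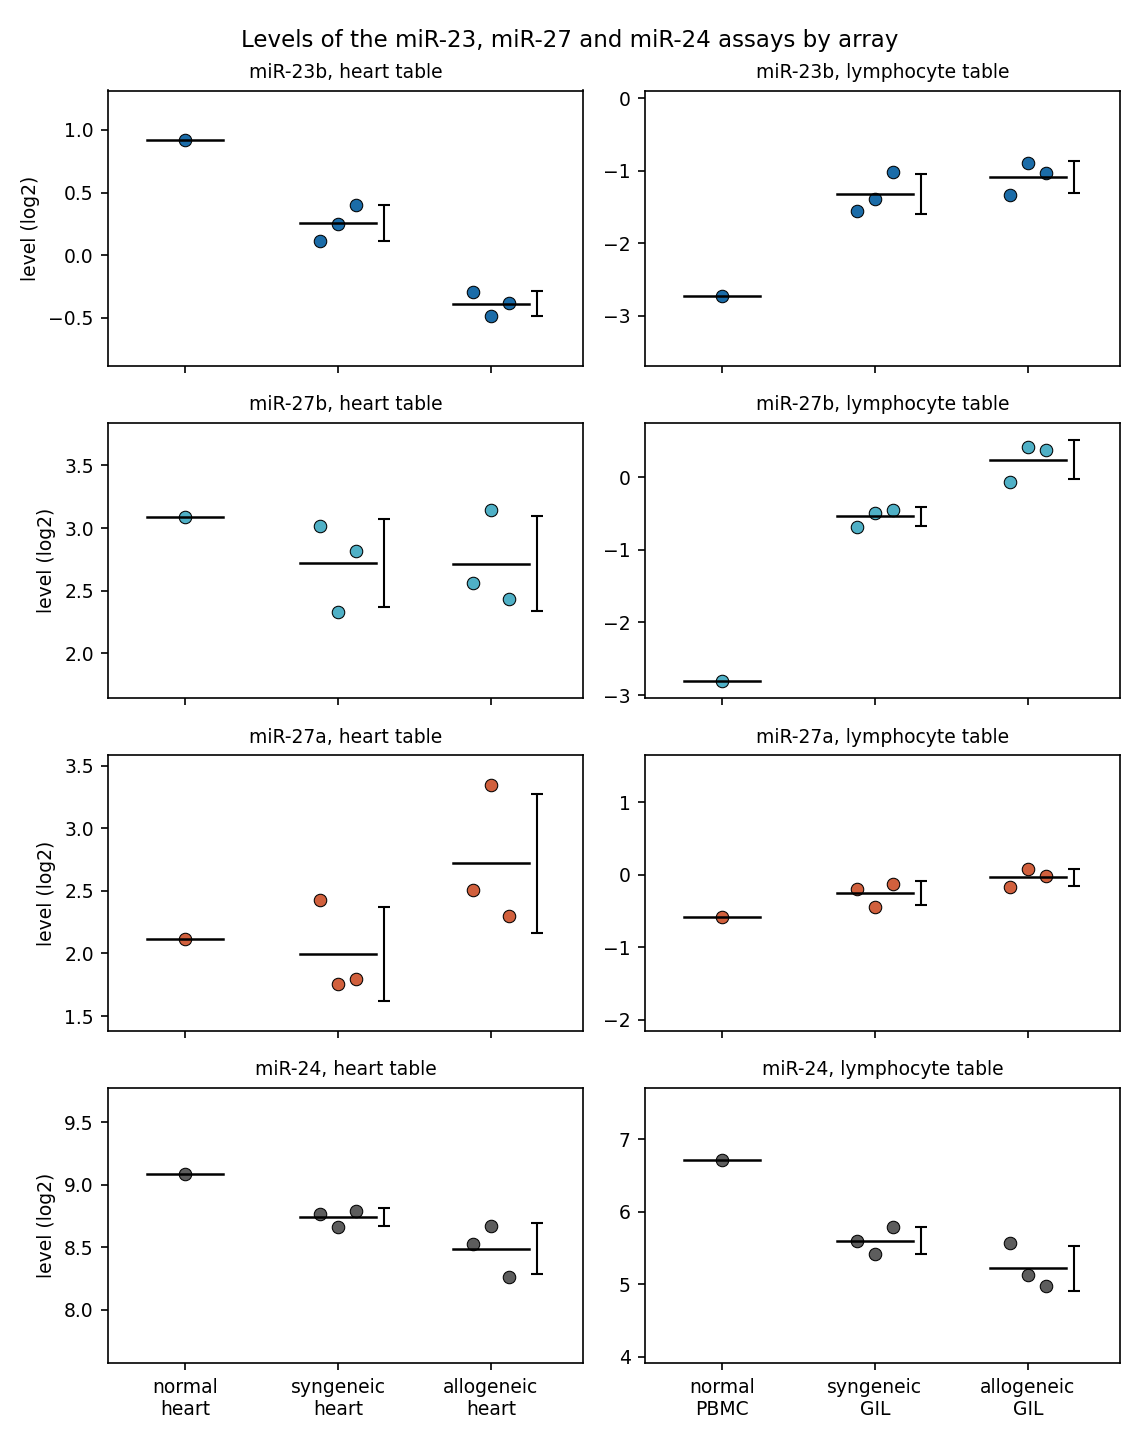
Level of each detected member on each array (log2 units, reference mean Ct minus Ct), hearts on the left and lymphocytes on the right, with 1 point per array, a line at the group mean and a bar of 1 SD beside groups of 3. The miR-23b points step down from normal (0.92) to syngeneic to allogeneic hearts without overlap, and the miR-27b points step up from PBMC (-2.81) to syngeneic to allogeneic GIL.

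In GIL, miR-27b was the member that separated the groups. Its level was -2.81 in PBMC. It was -0.69, -0.49 and -0.44 in syngeneic GIL pools 1 to 3 and -0.06, 0.41 and 0.38 in allogeneic GIL pools 1 to 3. Every allogeneic value lay above every syngeneic value, and every GIL value lay above PBMC. Of all assays tested, 57.7% had values that did not overlap between the GIL groups, in either direction.

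miR-27b rose 1.72-fold in allogeneic over syngeneic GIL (log2 fold change 0.78 ± 0.24, n = 3 pools per group, 95% interval 0.20 to 1.36, limma adjusted p = 0.0478). It was the single member called among 4, where 36.3% of 201 assays were called, 12.4% as higher, and the median of all assays tested was -0.24. It was positive under all 6 scalings and called under 4, at 1.00 with the reference median, 1.22 after quantile normalization and 1.67 with snoRNA202 beside the reference mean. With MammU6 (1.60, adjusted p = 0.0541) and with snoRNA135 and snoRNA202 together (1.43, adjusted p = 0.0733) it was not called. The call lies close to the threshold. It was kept without allogeneic pool 1 (0.94, adjusted p = 0.0404) and lost without any other single pool, at 0.70 and 0.71 without allogeneic pools 2 and 3 and at 0.71, 0.81 and 0.83 without syngeneic pools 1, 2 and 3 (adjusted p = 0.0899 to 0.129). All 3 syngeneic GIL arrays were run on 1 day and the allogeneic arrays on 2 other days, so run day and group cannot be told apart in GIL. In the authors' deposited table the relative quantity of miR-27b, with PBMC at 1, was 5.67, 6.32 and 8.33 in syngeneic GIL and 14.3, 37.3 and 18.2 in allogeneic GIL.

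The other members did not separate the GIL groups. miR-23b was at -1.55, -1.39 and -1.02 in syngeneic and -1.33, -0.89 and -1.03 in allogeneic GIL, a difference of 0.24 ± 0.25 (95% interval -0.38 to 0.86, limma adjusted p = 0.488). miR-27a was at -0.19, -0.44 and -0.13 in syngeneic and -0.17, 0.07 and -0.02 in allogeneic GIL, a difference of 0.22 ± 0.21 (interval -0.30 to 0.74, adjusted p = 0.445). miR-24 was at 5.59, 5.42 and 5.79 in syngeneic and 5.57, 5.12 and 4.97 in allogeneic GIL, a difference of -0.38 ± 0.26 (interval -1.01 to 0.25, adjusted p = 0.281). All 3 overlapped between the groups. The sign of miR-24 was not settled, being positive under 4 of 6 scalings, while those of miR-23b and miR-27a were positive under all 6.

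Set against PBMC, miR-27b and miR-23b of the chromosome 13 cluster were higher in the graft infiltrate than in blood, and miR-24 was lower. These differences are between cells from a graft and cells from blood, and they rest on 1 PBMC array, with a level of -2.73 for miR-23b, -0.59 for miR-27a and 6.71 for miR-24. miR-27b rose 4.82-fold in syngeneic GIL (log2 fold change 2.27 ± 0.34, limma adjusted p = 0.0028) and 8.29-fold in allogeneic GIL (3.05 ± 0.33, adjusted p = 8.24e-04). miR-23b rose 2.65-fold in syngeneic GIL (1.41 ± 0.37, limma adjusted p = 0.0192) and 3.13-fold in allogeneic GIL (1.65 ± 0.36, adjusted p = 0.0125). miR-24 fell, by 2.16-fold in syngeneic GIL (-1.11 ± 0.37, limma adjusted p = 0.0457) and 2.81-fold in allogeneic GIL (-1.49 ± 0.36, adjusted p = 0.0183). The medians of all assays tested were also below 0, at -0.77 in syngeneic and -1.19 in allogeneic GIL, against -1.11 and -1.49 for miR-24.

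miR-27a was not called, at 0.33 ± 0.31 (95% interval -0.44 to 1.11, limma adjusted p = 0.406) in syngeneic and 0.55 ± 0.30 (-0.19 to 1.29, adjusted p = 0.157) in allogeneic GIL. Of the 4 members with values, 2 were called higher and 1 lower in each comparison, where calls were common. For syngeneic GIL 60.7% of 229 assays were called, 28.8% higher and 31.9% lower, and for allogeneic GIL 58% of 212 assays, 22.2% higher and 35.8% lower. The PBMC array is shared by both. miR-27b in allogeneic GIL was called under all 6 scalings (2.78 to 4.41). In syngeneic GIL it was called under 5 of 6 and lost with MammU6 (1.18, limma adjusted p = 0.204). miR-23b was called under 5 of 6 in allogeneic GIL, lost with MammU6 (1.37, limma adjusted p = 0.143), but under 2 of 6 in syngeneic GIL, where it was 0.32 with MammU6 (adjusted p = 0.697). The calls of miR-24 were lost under 4 of 6 scalings in each comparison, and its sign turned after quantile normalization (0.55 and 0.88). The syngeneic call of miR-24 was also lost without any one syngeneic GIL pool (adjusted p = 0.0811 to 0.109), and that of miR-23b without syngeneic GIL pool 3 (1.26, adjusted p = 0.0594).

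Markers of other cells moved beside these differences, and their part in them was not tested. The summed level of the 2 endothelial markers, miR-126-3p and miR-126-5p, was 0.28 in PBMC, 5.79 to 6.42 in syngeneic and 4.55 to 5.32 in allogeneic GIL. That of the 2 smooth muscle markers was -2.45 in PBMC, 4.75 to 6.17 in syngeneic and 5.02 to 5.80 in allogeneic GIL. The 3 fibroblast markers summed to -4.86 in PBMC (2 of them undetected), 4.43 to 4.71 in syngeneic and 1.91 to 3.13 in allogeneic GIL. The 7 cardiac markers summed to -3.69 in PBMC (5 undetected), 3.78 to 4.47 in syngeneic and 5.18 to 6.45 in allogeneic GIL, with miR-208b and miR-490 undetected on every GIL array. The 4 leukocyte markers were highest in PBMC (8.53), against 5.23 to 6.05 in syngeneic and 5.83 to 6.46 in allogeneic GIL. Between the GIL groups, where miR-27b rose, endothelial and fibroblast sums were lower and cardiac sums higher in every allogeneic pool than in any syngeneic pool, and the other sums overlapped. Of the endothelial markers, miR-126-3p was called lower there (-1.07). miR-126-5p was not (-0.24), and the median of all assays tested was also -0.24.

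**Figure D2:**
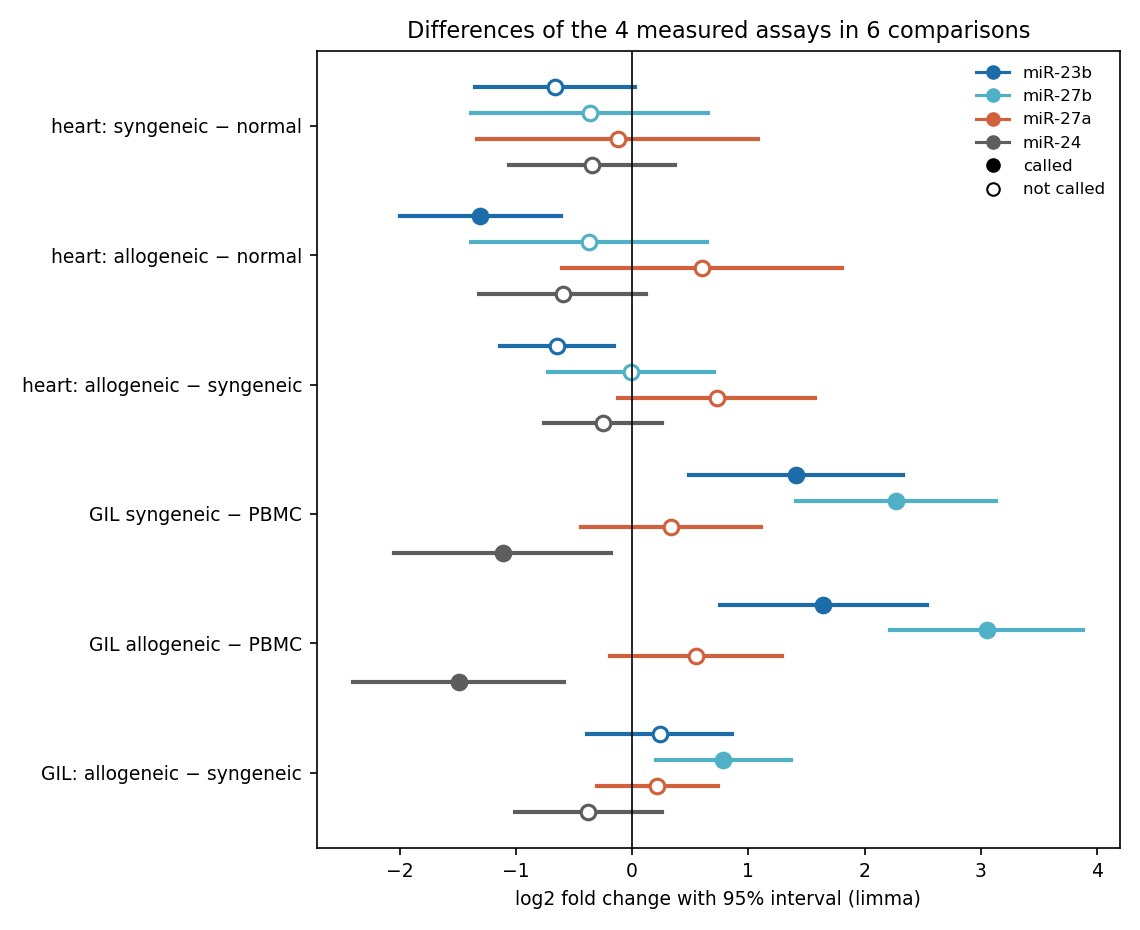
Log2 fold change of the 4 detected members in 6 comparisons (x axis), with the 95% interval from limma, filled points being called at an adjusted p under 0.05. In hearts the one filled point is miR-23b against the normal heart (-1.31), while both comparisons with PBMC have filled points for miR-27b, miR-23b and miR-24.

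The allogeneic effect in GIL was then set against that in whole hearts, as an interaction over the 12 transplant arrays. miR-23b differed between them (0.88 ± 0.29, 95% interval 0.23 to 1.53, limma adjusted p = 0.0445), with -0.64 in hearts and 0.24 in GIL. It was the single member called among 4, where 28.8% of 198 assays were called, 8.08% with a higher effect in GIL, and the median of all assays tested was -0.44. It was called under 3 of 6 scalings, and its adjusted p ran from 0.0116 to 0.114 over 21 other settings, of which 6 called it. The call was kept without syngeneic GIL pool 3 or allogeneic GIL pool 1 (1.03 and 1.00) and lost without each of the other 10 arrays in turn (0.77 to 0.95, adjusted p = 0.06 to 0.106). For miR-27b the difference was 0.79 ± 0.37 (interval -0.03 to 1.61, limma adjusted p = 0.139), for miR-27a -0.51 ± 0.42 (-1.43 to 0.41, adjusted p = 0.384) and for miR-24 -0.13 ± 0.30 (-0.80 to 0.54, adjusted p = 0.774). Days differ between the tables, so tissue and day cannot be told apart. Run day and group cannot be told apart in the GIL part of this difference either.

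**Figure D3:**
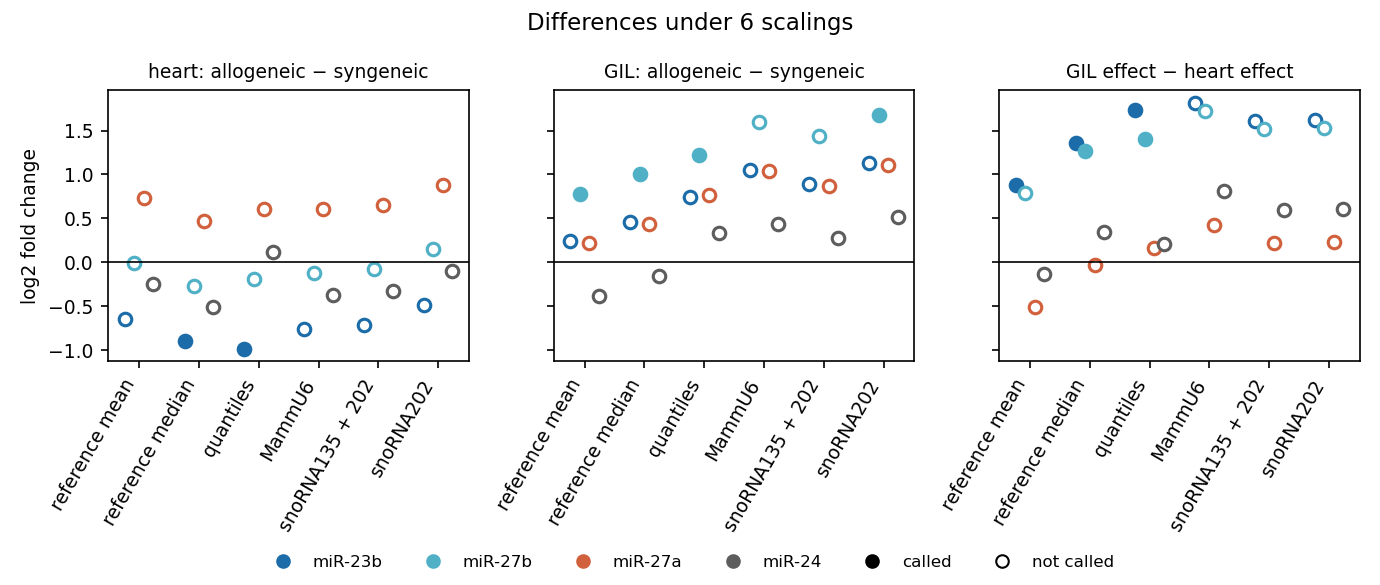
Log2 fold change of the 4 detected members (y axis) under 6 ways of scaling the arrays (x axis), for allogeneic minus syngeneic hearts, the same in GIL, and the difference between them, with filled points called. miR-23b lies below 0 in hearts and miR-27b above 0 in GIL under each scaling, whereas miR-24 lies on both sides of 0 in each panel.

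Differences in Ct between 2 members of the same array need no reference and give the balance of the members. The ratio of miR-27a to miR-27b sets a member of the chromosome 8 cluster against one of the chromosome 13 cluster. It is a ratio of 2 assays whose cross-detection was not tested, and is not a measure of whole clusters. Its log2 value was -0.97 in the normal heart, -0.59, -0.58 and -1.02 in syngeneic hearts and -0.05, 0.20 and -0.13 in allogeneic hearts. It was 2.22 in PBMC, 0.49, 0.05 and 0.31 in syngeneic GIL and -0.10, -0.34 and -0.40 in allogeneic GIL. So the ratio stood higher in every allogeneic heart than in any syngeneic heart, and lower in every allogeneic GIL pool than in any syngeneic GIL pool. Such separation was common among single assays, at 54.2% in hearts and 57.7% in GIL. The share over other pairs of assays was not computed. All 6 GIL pools lay below PBMC, the allogeneic ones farthest.

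The allogeneic minus syngeneic difference of this ratio was 0.73 in hearts and -0.56 in GIL. In each table the exact permutation test gave p = 0.10, the smallest that 3 pools against 3 can give (adjusted p = 0.167 over 10 pair tests). The difference between the tables, GIL minus heart, was -1.30. It is given as a description, without a p, because the opposite directions had been seen before the tables were compared. Leaving out any 1 of the 12 arrays kept it between -1.42 and -1.15. On the run days shared in hearts, the ratio was higher in the allogeneic pool by 0.53 and 0.45.

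Within the chromosome 13 cluster, the log2 ratio of miR-23b to miR-27b had a lower mean in allogeneic than in syngeneic samples in both tables. In GIL it was -0.86, -0.90 and -0.58 in syngeneic and -1.27, -1.31 and -1.41 in allogeneic pools, without overlap (difference -0.55, exact permutation p = 0.10, adjusted p = 0.167). In hearts it was -2.90, -2.08 and -2.41 in syngeneic and -2.85, -3.63 and -2.82 in allogeneic pools, and syngeneic pool 1 lay among the allogeneic values (difference -0.64, exact permutation p = 0.30). The values in the normal heart (-2.17) and PBMC (0.08) lay above the mean of both graft groups of their table. Without heart allogeneic pool 2 the difference in hearts was -0.37. On the run days shared in hearts it was 0.048 and -0.73, so it was not lower on both.

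The ratios of miR-24 to the miR-27 members had lower means in the allogeneic groups. Relative to miR-27a, miR-24 was lower in allogeneic than in syngeneic hearts by -0.98 (5.32 to 6.02 against 6.34 to 7.00) and in allogeneic than in syngeneic GIL by -0.60 (4.99 to 5.74 against 5.78 to 5.93), each without overlap and each with exact permutation p = 0.10. Relative to miR-27b, it was lower in GIL by -1.16 (4.59 to 5.63 against 5.90 to 6.28, exact permutation p = 0.10), and at -0.24 in hearts, where the groups overlapped and the value was -0.12 without allogeneic pool 2 and -0.091 without syngeneic pool 2. In PBMC this ratio was 9.52, above every GIL pool. On the run days shared in hearts it differed by 0.22 and -0.50, and the ratio of miR-24 to miR-27a by -0.32 and -0.94. The ratio of miR-24 to miR-23b overlapped between the groups in both tables (0.39 in hearts and -0.62 in GIL, exact permutation p = 0.20 and 0.30). Of the 10 pair tests none passed, as 3 pools against 3 cannot. Groups without overlap were common among single assays, at 54.2% in hearts and 57.7% in GIL, and the share over other pairs was not computed. Run day and group cannot be told apart in the GIL ratios. The 6 planned pair comparisons with miR-23a had no values.

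**Figure D4:**
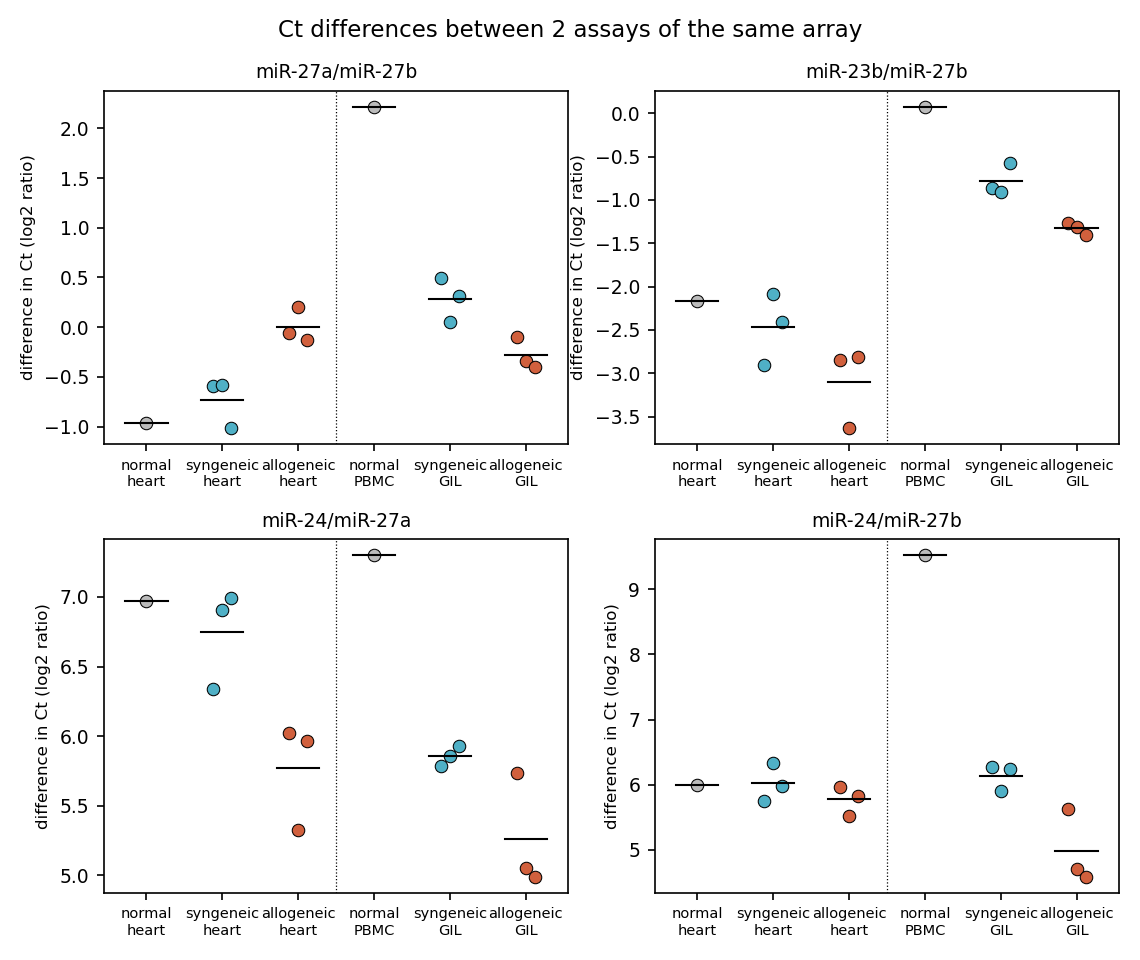
Difference in Ct between 2 members of the same array (log2 ratio, y axis) for 4 pairs, with 1 point per array, lines at group means, hearts left and lymphocytes right of the dotted line. The miR-27a/miR-27b points go up from syngeneic to allogeneic hearts (0.73) and down from syngeneic to allogeneic GIL (-0.56).

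On a common reference of 133 assays detected on all 14 arrays, each member can be placed across the 6 groups, without a test. miR-27a, miR-27b and miR-24 stood higher in whole hearts than in GIL. For miR-24 the means were 7.55 in the normal heart, 7.20 in syngeneic and 6.81 in allogeneic hearts, 6.68 in PBMC, 5.56 in syngeneic and 5.20 in allogeneic GIL. Allogeneic hearts (6.68 to 6.97) and PBMC did not differ beyond the spread of the heart pools. For miR-27b the means were 1.55 in the normal heart, 1.18 and 1.04 in syngeneic and allogeneic hearts, 0.22 and -0.58 in allogeneic and syngeneic GIL and -2.84 in PBMC. Its ranges overlapped between syngeneic (0.81 to 1.46) and allogeneic hearts (0.81 to 1.45), and the lone normal array lay above both. miR-27a ran from 1.04 in allogeneic hearts, through 0.58 in the normal heart, 0.45 in syngeneic hearts, -0.06 in allogeneic and -0.29 in syngeneic GIL, to -0.62 in PBMC, a narrower range. miR-23b had another order, with the normal heart (-0.62) first, then allogeneic GIL (-1.10), syngeneic hearts (-1.29), syngeneic GIL (-1.36), allogeneic hearts (-2.06) and PBMC (-2.77). The ranges of allogeneic GIL, syngeneic hearts and syngeneic GIL overlapped.

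The assays most like each member were found by the root mean square difference of centred levels over the 7 arrays of a table, as a description. Among 209 assays in hearts, miR-23b was nearest to miR-30d (0.07 log2 units), miR-26a (0.14) and let-7g (0.17). miR-27b was nearest to miR-130a (0.13), miR-320 (0.18) and then miR-24 (0.23), and miR-24 to miR-181a (0.13), miR-125a-5p (0.15) and miR-150 (0.16). miR-27a was nearest to miR-99b (0.22), miR-410 (0.25) and miR-132 (0.27). miR-27a ranked 136 of 209 from miR-23b (0.88), the least alike pair of members in hearts. In lymphocytes, among 136 assays, the nearest to miR-27b was its cluster neighbour miR-23b (0.48), followed by miR-155 (0.72) and miR-362-3p (0.73). miR-23b was nearest to miR-362-3p (0.36), miR-27a (0.41) and miR-331-5p (0.43). miR-27a was nearest to miR-362-3p (0.24), miR-148a (0.26) and miR-195 (0.29), and miR-24 to miR-484 (0.28), miR-192 (0.32) and miR-140 (0.34). The PBMC array contributes much of the spread of miR-27b in that table, over which its SD was 1.09.

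This list and the lists below were chosen with earlier results of these data known. Their counts and medians are therefore a description and not a test. Of 20 assays of other microRNAs that act in T cells, 5 rose and none fell in allogeneic against syngeneic hearts, where 17.2% of all assays tested rose and 15.1% fell. The median of the 20 was 0.54, against 0.02 over all assays tested. The largest were miR-182, which is induced in activated T cells (2.64 ± 0.40, limma adjusted p = 0.00457), and the leukocyte microRNA miR-142-3p (1.64 ± 0.25, adjusted p = 0.00457). In allogeneic GIL 9 of 20 rose and 1 fell (median 0.63, against -0.24), where 12.4% of all assays tested rose and 23.9% fell. The largest were miR-182 (2.95 ± 0.42, limma adjusted p = 0.00713) and miR-18a of the miR-17 cluster (2.27 ± 0.33, adjusted p = 0.00713), and miR-125b-5p fell (-1.32 ± 0.30, adjusted p = 0.0215). The miR-27b rise of 0.78 in GIL was smaller than each of those 9 called rises (0.89 to 2.95). It was larger than the values of the 10 list assays not called, of which miR-17 was the highest (0.64).

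Of 12 vascular microRNAs, 3 rose and 3 fell in allogeneic hearts (median -0.08, against 0.02), beside 32.4% of all assays called in either direction. miR-222 (1.22 ± 0.31) and miR-221 (1.15 ± 0.29) rose most, and both endothelial arms of miR-126 fell most, with log2 fold changes of -1.64 ± 0.27 (3p) and -1.30 ± 0.20 (5p) (limma adjusted p = 0.00457 to 0.0253). In GIL 1 of 11 rose, miR-92a (0.93 ± 0.28), and 2 fell, miR-218 (-1.54 ± 0.28) and miR-126-3p (-1.07 ± 0.32), with a median of -0.15 against -0.24 and 36.3% of all assays called (limma adjusted p = 0.0105 to 0.0478). Of 12 microRNAs of hypoxia, hypertrophy or fibrosis, 2 rose and 7 fell in allogeneic hearts (median -1.11, against 0.02, with 17.2% of all assays higher and 15.1% lower), led by the hypoxia-induced miR-210 (2.55 ± 0.31) and miR-21 (1.55 ± 0.21) upward and by miR-208b (-2.29 ± 0.34) and miR-199a-3p (-1.94 ± 0.29) downward (limma adjusted p = 0.00322 to 0.00457). In GIL 3 of 12 rose and 3 fell (median 0.13, against -0.24, with 36.3% of all assays called), led by miR-133a (1.67 ± 0.40) and miR-133b (1.54 ± 0.47) upward and miR-214 (-3.45 ± 0.46) and miR-199a-3p (-1.38 ± 0.37) downward (limma adjusted p = 0.00713 to 0.0478).

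Beside the lower miR-23b of allogeneic hearts, the endothelial sum was 6.78 to 7.39 in allogeneic, 8.55 to 9.001 in syngeneic and 10.03 in normal hearts. The cardiac sum was 9.13 to 9.47, 10.54 to 11.27 and 12.18 in the same order, and the leukocyte sum 7.75 to 8.16, 7.04 to 7.48 and 6.63. The smooth muscle sum was 5.73 to 6.27, 6.91 to 7.01 and 8.003 in that order. Endothelial, cardiac and smooth muscle sums thus step down in the order in which miR-23b does, and the leukocyte sum steps up. Single markers did not all follow their sum. The leukocyte marker miR-150 had negative values, not called, in syngeneic against normal (-0.29) and allogeneic against syngeneic hearts (-0.49), while the other leukocyte markers had positive ones. The cardiac marker miR-208b was nearly level in syngeneic against normal hearts (-0.10). The fibroblast sum was lowest in allogeneic hearts (2.06 to 2.84), 3.91 to 4.67 in syngeneic and 3.41 in normal hearts, and the erythroid sum was 3.58 to 4.83, -0.74 to 1.66 and 3.01. The erythroid markers did not move together. In allogeneic against syngeneic hearts miR-451 was called higher (3.99), while miR-486 was not called (-0.16). In allogeneic against normal hearts miR-451 was at 1.27 and miR-486 at -2.17. The part of these markers in the miR-23b values was not tested.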

How the data were processed

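Data came from 14 TaqMan rodent microRNA cards in 2 tables, 7 of hearts and 7 of lymphocytes. Per the labels, 100 ng RNA of each of 3 animals was pooled (300 ng), reverse transcribed and preamplified with Megaplex primers and run on a 7900HT instrument. The threshold cycle (Ct) was exported by the authors with SDS 2.4, per the file headers, and threshold settings were not given in the sources used here. The deposited delta Ct, on an inverted log2 scale, equals Ct minus that of snoRNA202 with undetermined wells at 40, to within 5e-04. The deposited relative quantity is a ratio against the normal array of the table, matching within 1% for 100% of those checked, 1742 in hearts and 1464 in lymphocytes. In hearts 1 let-7b well, whose sample name matched no label, was left out.

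From Ct, levels were computed with a floor at Ct 35. A linear model of the 3 groups of a table was fitted to all assays (limma 3.58.1 with R 4.3.3, lmFit followed by eBayes, two-sided tests, Benjamini-Hochberg over all assays detected on every array of at least 1 group compared). The interaction used the 12 transplant arrays. Member pairs were compared with exact permutation tests over pools. Marker sums are log2 of summed linear levels. The script was tested on simulated data. The labels do not say that pools were handled separately, so p-values measure the spread between these pools. Replicate numbers were not used to pair the arrays in the main fits. Correlations of deviations ran from -0.29 to 0.24 for same-numbered arrays and from -0.3525 to 0.355 for the others. With 3 pools in each group these values cannot settle whether arrays were paired. The number of arrays limits the precision.

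The members, lists, markers and tests were chosen with earlier results of these data known. The rule for named assays took the 5 members, the 3 assays nearest to each in a table, and up to 2 largest called changes each way of each list in each allogeneic against syngeneic comparison. Alternatives were other scalings, detection limits, filters, software marks, run day, replicate block, groups fitted and leaving out each array.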

Additional observations from a re-analysis of the deposited data

Results flagged for a closer look

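The allogeneic effect on miR-23b differed between GIL and whole hearts by 0.88 log2 units in the interaction test (limma adjusted p = 0.0445). In that test 28.8% of 198 assays were called, and miR-23b was called under 6 of 21 other settings. The allogeneic change in the log2 ratio of miR-27a to miR-27b differed between GIL and hearts by -1.30, as the ratio was higher in every allogeneic heart and lower in every allogeneic GIL pool than in any syngeneic one. This was seen first and compared afterwards, and the difference was not tested on other arrays. Groups without overlap were common among single assays, at 54.2% in hearts and 57.7% in GIL. The miR-23a well of the PBMC array had a Ct of 23.9 although the software marked it as not amplified, and the other 13 wells of this assay were undetermined. The PBMC group has 1 array, so this Ct has no replicate.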

How the results depend on the processing

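The log2 fold changes below are limma values under each alternative; the cause of each change was not tested unless fewer samples or assays were fitted. The list covers all the changes of sign or call, and the other settings kept both.

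Scaled to MammU6, calls were lost for miR-27b between GIL groups (1.60) and in syngeneic GIL against PBMC (1.18), for miR-23b against PBMC (0.32 syngeneic, 1.37 allogeneic), in allogeneic against normal hearts (-1.08) and in the interaction (1.82). Signs turned for miR-24 between GIL groups (0.44) and in the interaction (0.81), and for miR-27a in the interaction (0.43), in syngeneic GIL against PBMC (-0.76) and in syngeneic against normal hearts (0.22). The assays called numbered 34, 24, 58 and 15 in allogeneic against syngeneic, syngeneic against normal and allogeneic against normal hearts and the interaction, against 77, 46, 125 and 57.

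Scaled to snoRNA202 and to snoRNA135 with snoRNA202, in that order, calls were lost for miR-24 against PBMC (allogeneic -0.13 and -0.50, syngeneic -0.64 and -0.78), miR-23b in syngeneic GIL against PBMC (1.88 and 1.74) and in the interaction (1.62 and 1.60). Calls were also lost for miR-27b between GIL groups with both snoRNAs (1.43) and miR-23b against normal hearts with snoRNA202 (-0.71). Signs turned for miR-24 between GIL groups (0.51 and 0.27) and in the interaction (0.61 and 0.60), and for miR-27a in the interaction (0.23 and 0.22). With snoRNA202 they also turned for miR-27b in allogeneic against normal (0.22), allogeneic against syngeneic (0.15) and syngeneic against normal hearts (0.073), and for miR-24 (0.093) and miR-27a (0.31) in the last. Assays called were 48 and 31 between GIL groups, 63 and 62 in allogeneic GIL against PBMC and 27 and 27 in the interaction, against 73, 123 and 57.

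With the reference median, calls were gained for miR-23b in allogeneic against syngeneic hearts (-0.90), miR-27a in allogeneic GIL against PBMC (1.01) and miR-27b in the interaction (1.26), and lost for miR-24 against PBMC (-1.04 allogeneic, -0.87 syngeneic). miR-24 turned in the interaction (0.35). After quantile normalization the same 3 were gained (-0.99, 0.99 and 1.41) and miR-23b lost in syngeneic GIL against PBMC (0.91). miR-24 turned in allogeneic GIL against PBMC (0.88), between GIL groups (0.33), in the interaction (0.21), in syngeneic GIL against PBMC (0.55) and in allogeneic against normal (0.37), allogeneic against syngeneic (0.12) and syngeneic against normal hearts (0.24), and miR-27a in the interaction (0.16). A common reference turned miR-24 in the interaction (0.026). The median of all assays between GIL groups was -0.24, and 0.58 with MammU6, 0.41 with both snoRNAs and 0.65 with snoRNA202. Higher and lower calls, 25 and 48 there, became 34 and 20 with MammU6, 21 and 10 with both snoRNAs, 38 and 10 with snoRNA202, 36 and 39 with the median and 34 and 31 after quantile normalization. They moved between graft hearts from 41 and 36 to 42 and 23 (snoRNA202) and 24 and 56 (median), in syngeneic against normal hearts from 28 and 18 to 20 and 4 (MammU6), 31 and 10 (snoRNA202) and 19 and 19 (quantiles), and in allogeneic against normal hearts from 63 and 62 to 38 and 20, 79 and 29, and 46 and 75 in the same order. In syngeneic GIL against PBMC they moved from 66 and 73 to 53 and 92 (MammU6), 63 and 35 (both snoRNAs) and 63 and 31 (snoRNA202), in allogeneic GIL against PBMC from 47 and 76 to 49 and 13 (both snoRNAs), 54 and 9 (snoRNA202), 52 and 46 (median) and 43 and 43 (quantiles), and in the interaction from 16 and 41 to 9 and 6, 19 and 8, 20 and 7, 33 and 25, and 26 and 23 (MammU6, both snoRNAs, snoRNA202, median, quantiles).

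A detection limit of Ct 32 lost miR-27b between GIL groups (0.65), miR-23b in the interaction (0.76) and miR-24 in syngeneic GIL against PBMC (-0.77). Limits of 38 and 40 gained miR-23b in allogeneic against syngeneic hearts (-0.63) and turned miR-27b (0.011), and 40 lost miR-27b between GIL groups (0.82, adjusted p = 0.0501). With no filter, values stayed and p rose over more assays: called assays were 42 in hearts and 35 between GIL groups, and miR-27b (0.78), miR-23b against PBMC (1.41 syngeneic, 1.65 allogeneic) and miR-24 (-1.11 and -1.49) were lost.

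The replicate block left 46 assays called in hearts and 31 in the interaction, and lost miR-27b between GIL groups (0.78, adjusted p = 0.0924) and miR-23b in the interaction (0.88, adjusted p = 0.114). It changed no other call of a member. Run day as a fixed block left 2 assays called in hearts. In GIL that block was not run, because no day held both groups. As a random block it changed no member's call. 

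Without 1 array each, ranges were 42 to 81 assays called in hearts (42, 45 and 43 without syngeneic pools 2 and 3 and allogeneic pool 1), 39 to 73 between GIL groups (46, 39 and 43 without syngeneic pools 1, 2 and 3), 0.70 to 0.94 for miR-27b between GIL groups, 0.77 to 1.03 for miR-23b in the interaction, 1.26 to 1.52 for miR-23b and -1.21 to -1.02 for miR-24 in syngeneic GIL against PBMC, and -0.22 to 0.14 for miR-27b in hearts. The 10 pair differences kept their sign and moved by less than the pooled SD of both groups, but 3 of them in hearts moved over 1.5 times: miR-23b to miR-27b (-0.37) and miR-24 to miR-23b (0.25) without allogeneic pool 2, and miR-24 to miR-27b (-0.12, -0.091 and -0.38 without allogeneic pool 2 and syngeneic pools 2 and 1). In GIL, miR-23b reached a Ct of 28.98, nearer the detection limit than in hearts (23.9).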
